A study of Mus musculus with 57 samples.

Results

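The immediate early and heat shock genes described here are Fos, Jun, Egr1, Ier2, Btg2 and Hspa1b, taken by symbol as 6 of the 12087 genes in the expression table. All 6 had a row. The cells were 57 single cells from postnatal day 4 kidneys of Tg(Crym-EGFP) mice on a mixed background, in which regulatory sequence of Crym drives the fluorescent reporter EGFP. They carry the label renal vesicle, the earliest epithelial nephron, and all came from 1 pool of 2 kidneys, from a number of animals that the sources do not state. Tissue was digested with trypsin at 37 °C for 5 minutes, cells were sorted by fluorescence and captured on a microfluidic chip, and amplified cDNA was sequenced without strand information or molecular identifiers. Every cell carried the same reporter and passed through the same digestion, and the design has no undigested kidney and no second group to set them against.

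Immediate early genes are transcribed within minutes of a growth factor, cell adhesion or stress signal, without the need for new protein synthesis, and their short-lived mRNAs disappear again soon after. Most encode transcription factors or regulators that set the next wave of transcription, and mechanical and enzymatic handling of tissue is a known inducer. Heat shock genes such as Hspa1b are switched on by a separate factor, Hsf1, when unfolded protein accumulates. Fos and Jun form the AP-1 dimer, Egr1 is a zinc finger transcription factor, Ier2 is a small nuclear regulator, Btg2 restrains proliferation and recruits the mRNA deadenylation machinery, and Hspa1b encodes an inducible cytosolic chaperone.

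RefSeq promoter windows on build GRCm38.p6, from 250 bases before to 50 bases after the start, are printed for 4 of the 6 genes. They are shown because these 4 differ widely in how many cells express them. The windows are Fos at chr12:85473640-85473939 on the plus strand, Jun at chr4:95052173-95052472 on the minus strand, Btg2 at chr1:134079106-134079405 on the minus strand and Hspa1b at chr17:34959189-34959488 on the minus strand. Each is printed along its own gene. Capitals mark matches to TGACGT, TGACGTCA, TGACATCA, GAANNTTC or CCAAT, searched on both strands. The first 3 are forms of the cyclic AMP and AP-1 response element, GAANNTTC is a unit of the heat shock element, and CCAAT is a general promoter element.
Fos: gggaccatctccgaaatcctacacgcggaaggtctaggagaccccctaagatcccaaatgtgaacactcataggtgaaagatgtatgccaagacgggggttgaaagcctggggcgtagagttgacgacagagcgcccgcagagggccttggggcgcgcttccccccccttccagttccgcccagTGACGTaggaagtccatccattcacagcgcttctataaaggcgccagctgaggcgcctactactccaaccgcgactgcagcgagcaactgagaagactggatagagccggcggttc
Jun: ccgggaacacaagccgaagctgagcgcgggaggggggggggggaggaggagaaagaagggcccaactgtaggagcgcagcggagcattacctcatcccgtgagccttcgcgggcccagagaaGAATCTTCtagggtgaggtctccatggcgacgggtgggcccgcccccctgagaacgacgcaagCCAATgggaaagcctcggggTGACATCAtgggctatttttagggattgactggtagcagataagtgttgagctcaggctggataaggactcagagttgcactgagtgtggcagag
Btg2: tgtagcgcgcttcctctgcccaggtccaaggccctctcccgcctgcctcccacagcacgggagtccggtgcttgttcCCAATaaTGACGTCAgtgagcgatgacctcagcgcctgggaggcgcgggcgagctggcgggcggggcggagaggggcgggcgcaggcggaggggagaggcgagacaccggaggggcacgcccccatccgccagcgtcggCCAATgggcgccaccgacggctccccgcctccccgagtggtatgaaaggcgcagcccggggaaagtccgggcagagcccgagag
Hspa1b: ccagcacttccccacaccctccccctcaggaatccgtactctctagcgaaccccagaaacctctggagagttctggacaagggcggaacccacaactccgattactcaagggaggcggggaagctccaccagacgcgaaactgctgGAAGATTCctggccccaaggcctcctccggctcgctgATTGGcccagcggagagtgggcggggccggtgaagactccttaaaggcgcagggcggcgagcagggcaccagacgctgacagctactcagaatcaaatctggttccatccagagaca
In Fos the match was TGACGT, at positions -66 to -61 from the start. Jun had TGACATCA at -45 to -38, GAATCTTC at -128 to -121 and CCAAT at -65. In Btg2 the full TGACGTCA, which contains TGACGT on both strands, lay at -166 to -159, with CCAAT at -173 and at -34. Hspa1b had GAAGATTC at -104 to -97 and CCAAT, on the other strand, at -67. Among 32851 windows of the same length, 1.79% held TGACGTCA, 7.51% TGACGT, 3.62% TGACATCA, 7.86% GAANNTTC and 37.4% CCAAT. A serum response element of the CArG box form was found in none of the 4 windows and in 1.63% of all windows. Sequence more than 250 bases before the start was not searched, nor were the promoters of Egr1 and Ier2. An element there would be missed. These matches are letters in a window and were not tested for binding.

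Levels are given as RPKM, reads scaled to the length of the gene and to the mapped reads of the cell, and detected means RPKM 1 or more. Depth, estimated from the RPKM that 1 read is worth, ran from 0.474 to 2.29 M reads (median 1.47 M). Between 2809 and 6502 genes were detected per cell, with a median of 4307. Across cells, the rank correlation of depth with the 5 widely detected genes lay between -0.10 and 0.10. Pax8, a transcription factor of the early nephron, was under RPKM 5 in 7 cells. Of these, cells 1, 25, 35, 46 and 58 had the complement gene C1qb at RPKM 1000 or more and are called macrophage-like. Cells 13 and 53 form the other low-Pax8 pair. The 50 cells that remain are called nephron cells. Among these, cells 50 and 54, both with Fos detected, had the lowest Pax8, at RPKM 10.7 and 15.8. Their C1qb was at RPKM 13.2 and 8.91.

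Hspa1b, the stress-induced chaperone, was nearly silent, and the immediate early genes were each found in 14 to 37 of the 57 cells. Jun lies on chromosome 4 (94715727 to 94718913 on build mm9, which all gene positions here use) and was found in 37 of 57 cells, a share of 64.9% with an exact 95% interval of 51.1 to 77.1. Its mean RPKM was 12.6 ± 23.4 (SD, n = 57 cells), its median 5.29 and its highest value 157, in cell 29. Jun was thus the most widespread of the 6 but mostly low, with 10 cells at RPKM 20 or more and 1 at 100 or more.

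Egr1, on chromosome 18, was found in 30 cells, or 52.6% (39.0 to 66.0). The mean RPKM was 86.0 ± 166, and cell 2 reached 820. Where it was present it was usually strong, since 18 of its 30 cells were at RPKM 100 or more. Ier2 (chromosome 8, 87185230 to 87186751) was found in 26 cells, or 45.6% (32.4 to 59.3), and averaged 24.8 ± 74.0. Its median over detecting cells was 10.0 and its highest value 407, again in cell 2.

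Btg2 (chromosome 1, 135971442 to 135975732) was found in 21 cells, or 36.8% (24.4 to 50.7), and averaged RPKM 115 ± 349. Its highest values were 1585 in cell 34, 1534 in cell 2 and 1370 in cell 10, and the next was 792 in macrophage-like cell 25. Fos (chromosome 12, 86814851 to 86818219) was found in 14 cells, or 24.6% (14.1 to 37.8). It averaged 81.6 ± 261, and its highest value was 1144 in cell 25. The Fos distribution was close to all or none, with 33 cells at 0, 10 cells between 0 and 1, and 11 cells at RPKM 20 or more. A value between 0 and 1 stood for an estimated 3.02 reads or fewer.

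Hspa1b (chromosome 17, 35093374 to 35096183) was found in 3 cells, or 5.26% (1.10 to 14.6), with RPKM 7.81 in cell 2, 4.32 in cell 27 and 3.77 in cell 26. Another 53 cells were at 0. The 3 values rest on an estimated 12.6 to 17.8 reads each. A near-identical neighbour of this gene, Hspa1a, can share its reads and was not analysed here, so the level of Hspa1b is uncertain. All 3 cells also had Fos, Jun and Egr1 detected.

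**Figure D1:**
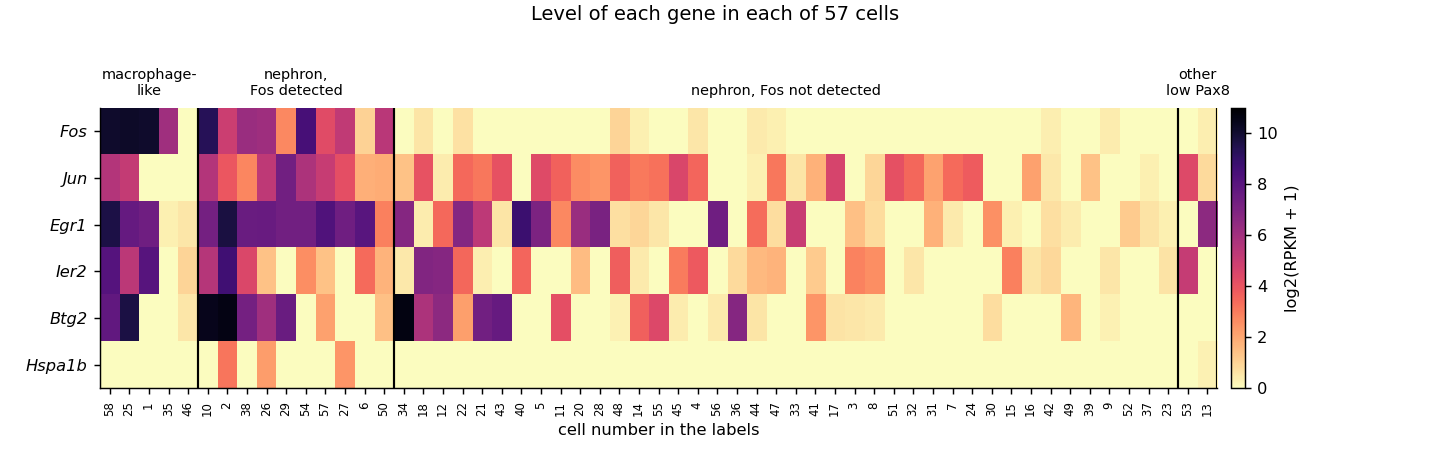
Level of the 6 genes (rows) in each of 57 cells (columns, numbered as in the labels), as log2(RPKM + 1), with cells grouped by class and sorted within a class by the mean level of the 5 widely detected genes. Fos is strongest in 3 macrophage-like cells, all 10 nephron cells with Fos have Jun and Egr1 coloured, and Jun and Egr1 extend into the 40 nephron cells without Fos.

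The genes did not switch on as a single block. Of the 57 cells, 5 had none of the 6 genes detected, 17 had 1, 14 had 2, 8 had 3, 5 had 4, 6 had 5 and 2 had all 6. The cells with all 6 were cells 2 and 26. At the higher level of RPKM 20, 25 cells had none and 3 cells had 5.

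By rank correlation, the pairs that moved together all included Fos. Rank correlation (Spearman's rho) was computed for the 10 pairs of the 5 genes detected in at least 10 cells, and pairs at 0.3 or more were described as moving together. Fos reached rho 0.52 with Egr1, 0.49 with Ier2 and 0.37 with Jun. The other 7 pairs lay between 0.14 (Jun and Ier2) and 0.29 (Egr1 and Btg2), and Fos and Btg2 had rho 0.25. Thus 3 of 10 pairs reached 0.3, where 2.65% of all pairs of 8152 tested genes did. The median over the 10 pairs was 0.27, against 0.030 over all pairs. These correlations are descriptions over 57 cells that share a pool and a sequencing run, and cells are not replicates.

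The same 3 pairs led among the 50 nephron cells alone, with rho 0.47 for Fos and Egr1, 0.51 for Fos and Ier2 and 0.44 for Fos and Jun, where 3.09% of all gene pairs reached 0.3. The median of the 10 pairs was then 0.23, and that of Jun and Ier2 was 0.04. The column headers carry library index numbers whose leading digit divides the cells into 8 index rows, and Fos was unevenly spread over these. No cell of 3 rows, which hold 21 cells, had Fos detected (a count of 0 allows a share of up to 14.3%, 3 counts of the 21, for counting error only), while 14 of the 36 cells in the other 5 rows did. With ranks centred within index rows, an alternative chosen after seeing the data, rho was 0.41 for Fos and Egr1, 0.41 for Fos and Ier2 and 0.33 for Fos and Jun (background 3.49%). Fos and Btg2 then had rho -0.05, and the median of the 10 pairs was 0.13. What part the index row plays in these values was not tested.

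**Figure D2:**
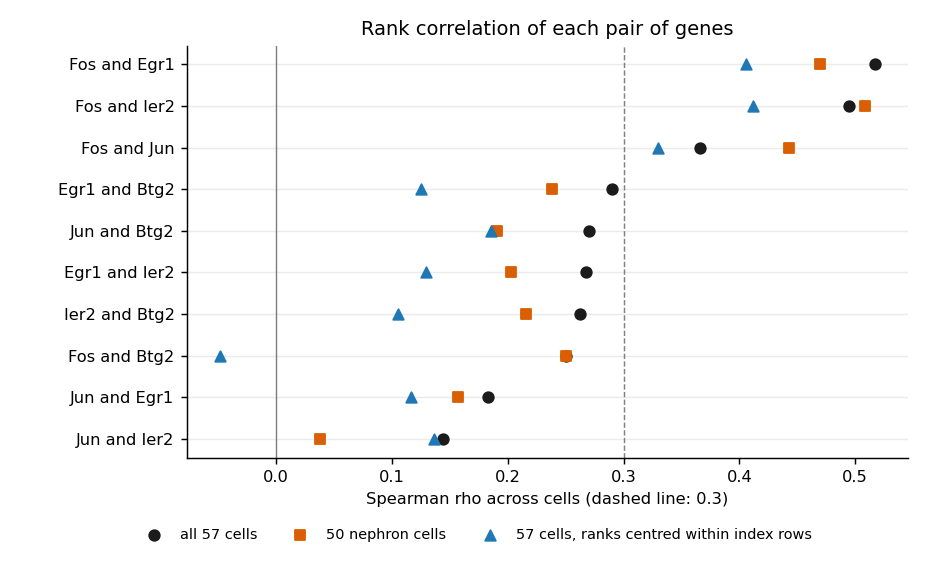
Spearman's rho across cells (x axis) for the 10 pairs of genes detected in at least 10 cells (y axis), over all 57 cells (circles), over 50 nephron cells (squares) and with ranks centred within index rows (triangles). The 3 pairs of Fos with Egr1, Ier2 and Jun lie right of the dashed line at 0.3 in all 3 versions, and the other 7 pairs lie left of it.

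Nearly every cell with Fos also had Egr1 and Jun. Of the 14 cells with Fos, 13 (92.9%) had Egr1, 12 (85.7%) had Jun, 11 (78.6%) had Ier2 and 9 (64.3%) had Btg2. Independence of the genes would give 7.37 cells for Fos with Egr1, 9.09 with Jun, 6.39 with Ier2 and 5.16 with Btg2. Seen from the partners, Fos was present in 43.3% of the cells with Egr1, 42.3% of those with Ier2, 42.9% of those with Btg2 and 32.4% of those with Jun. The counts of cells limited these shares. Fos was in 14 cells, against 30 for Egr1, 26 for Ier2, 21 for Btg2 and 37 for Jun. In comparison, Jun and Egr1 shared 20 cells where independence gives 19.5. At RPKM 20 or more, all 10 pairs shared more cells than independence gives, those without Fos included. Jun and Egr1 then shared 7 cells against 3.86, and Ier2 and Btg2 7 against 2.21, beside 9 against 4.25 for Fos and Egr1.

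Among nephron cells, 10 had Fos, namely cells 2, 6, 10, 26, 27, 29, 38, 50, 54 and 57. Their Fos RPKM ran from 1.02 in cell 6 over a median of 38.4 to 637 in cell 10. Jun, the AP-1 partner of Fos, was detected in all 10 of these cells, at RPKM 2.51 to 157 with a median of 24.7, against 24 of 40 cells without Fos, at 0 to 23.8 with a median of 3.42. The ranges overlapped, but 5 of the 10 cells with Fos and 2 of the 40 without it had Jun at RPKM 20 or more.

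Egr1 separated the classes further. It was detected in 10 of 10 nephron cells with Fos, at RPKM 6.58 to 820 with a median of 175, against 16 of 40 nephron cells without Fos, at 0 to 437 with a median of 0.642. This difference in detected share was 60.0 points, and 0.0245% of the 8151 other genes tested had a difference in this direction at least as large. Cell 50 had the lowest Egr1 of the 10, and the other 9 were at RPKM 151 or more. High Egr1 also occurred without Fos, as in cell 40 (RPKM 437), cell 56 (165), cell 28 (137) and cell 5 (129), each of which had Fos at 0.

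Ier2 was detected in 8 of 10 nephron cells with Fos and in 14 of 40 without (0.368% of genes differed as far). Its median RPKM was 3.71 with Fos and 0.427 without, and its values overlapped. Btg2 was detected in 7 of 10 nephron cells with Fos and in 12 of 40 without, a difference of 40.0 points that 0.822% of genes reached, the same share as for Jun. Btg2 was nonetheless at RPKM 1585 in cell 34, where Fos was at 0 and Ier2 at 0.419, so the highest Btg2 level was in a cell without Fos. Hspa1b was detected in 3 of 10 nephron cells with Fos and in 0 of 40 without, where a count of 0 allows a share of up to 7.5% (3 counts of the 40). No share over all genes was computed for this difference, since genes detected in fewer than 10 cells were not tested. Of the 3 cells, cells 2 and 26 were in index row 2, where 5 of 8 cells had Fos.

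**Figure D3:**
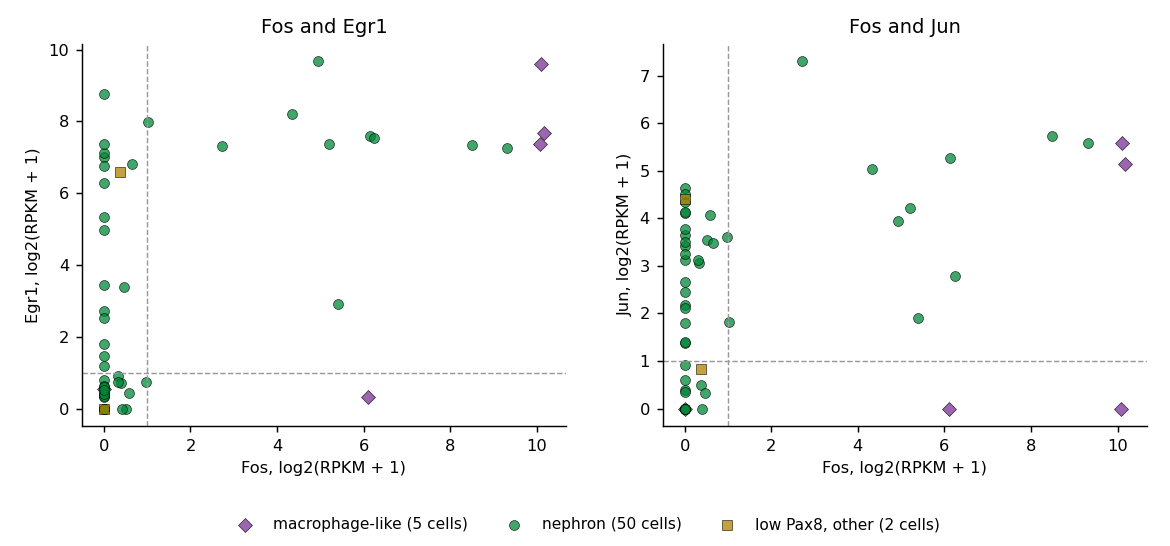
Egr1 (left) and Jun (right) against Fos in each of 57 cells, all as log2(RPKM + 1), with macrophage-like cells as diamonds, nephron cells as circles and the other low-Pax8 cells as squares. Dashed lines mark RPKM 1, the detection level. Nephron cells right of the vertical line all lie above the horizontal line, while several cells at Fos 0 also have Egr1 or Jun.

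The highest Fos levels of the series were in macrophage-like cells. Fos was at RPKM 1073 in cell 1, 1144 in cell 25, 67.4 in cell 35, 0 in cell 46 and 1092 in cell 58, against a highest nephron value of 637. The macrophage-like cells thus fell into 3 very high, 1 moderate and 1 without Fos. Egr1 was high in the same 3 cells, with RPKM 165 in cell 1, 202 in cell 25, 0.243 in cell 35, 0.470 in cell 46 and 780 in cell 58. So was Ier2, at 266 in cell 1, 39.3 in cell 25, 0 in cell 35, 0.948 in cell 46 and 272 in cell 58.

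Jun and Btg2 did not follow Fos in all of them. Jun was at RPKM 34.1 in cell 25 and 46.7 in cell 58 and at 0 in cells 1, 35 and 46. Btg2 was at 792 in cell 25, 215 in cell 58 and 0.468 in cell 46, and at 0 in cells 1 and 35. Cell 1 therefore had Fos above RPKM 1000 with neither Jun nor Btg2, a combination that no nephron cell with Fos showed, as all 10 of those had Jun. Hspa1b was at 0 in all 5 macrophage-like cells.

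A low level of macrophage transcripts ran with Fos and Egr1 inside the nephron cells as well. The rho of the macrophage score, the mean log2(RPKM + 1) of 15 markers, over nephron cells was 0.36 with Fos, 0.47 with Egr1 and 0.34 with Btg2, and 2.91% of genes reached 0.3 with this score in these cells. The summed RPKM of the 15 markers was 1.84 to 205 with a median of 5.97 in the 10 nephron cells with Fos, 0 to 211 with a median of 2.96 in the 40 nephron cells without Fos, and 11100 to 21584 in macrophage-like cells. C1qb was detected in 5 of 10 nephron cells with Fos and in 6 of 40 without, while C1qa and Cd14 were each detected in 0 of the 10 and in 1 of the 40. Centred within index rows, rho over 57 cells was 0.29 for Fos and 0.32 for Egr1, against 0.44 and 0.42 uncentred, where 2.41% of genes reached 0.3. With Pearson's r on log2 values over the same 57 cells, Egr1 had 0.20, 0.20 and 0.23 at pseudocounts of 0.1, 1 and 10, under 0.3 in each case. Of the 10, cell 26 had the highest macrophage score, at 2.12. The part of these transcripts in the Fos and Egr1 values was not tested.

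Jun and Btg2 leaned towards the proximal side of the nephron cells, and Ier2 was detected more often on the distal side. Cells were classed by Wt1, which marks the proximal vesicle and later podocytes, and by Sox9 and Pou3f3, transcription factors of the distal vesicle, each at RPKM 20 or more. There were 33 cells with Wt1 only and 12 with Sox9 or Pou3f3 only, while 2 had both sides and 3 neither. Wt1 lay between RPKM 10 and 40, near the threshold, in 5 nephron cells, and so did the higher of Sox9 and Pou3f3 in 5.

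Btg2, the antiproliferative regulator, differed most. It was detected in 16 of 33 Wt1-only cells (48.5%, interval 30.8 to 66.5), at RPKM 0 to 1585 with a median of 0.683, against 1 of 12 Sox9- or Pou3f3-only cells (8.33%, interval 0.211 to 38.5), at 0 to 1.71 with a median of 0. A difference of 40.2 points in this direction was reached by 1.12% of genes. Of the Wt1-only cells 11 were at RPKM 20 or more, and of the Sox9- or Pou3f3-only cells 0. In 5 of the 7 index rows that hold both classes, the Wt1-only cells had the higher share with Btg2, and in the other 2 the shares were equal. Each of these rows held only 1 to 4 Sox9- or Pou3f3-only cells, and the 1 with Btg2 was in row 2. A lower share in Wt1-only cells was thus possible in row 2 alone, so the row counts add little. Row 8 held 4 of the 12, and there 0 of 3 Wt1-only cells had Btg2. Over all cells Btg2 was itself uneven between index rows, from 7 of 8 cells in row 2 to 0 of 7 in row 8.

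Jun was detected in 27 of 33 Wt1-only cells (81.8%, interval 64.5 to 93.0), at a median RPKM of 10.1 and up to 157, against 6 of 12 Sox9- or Pou3f3-only cells (50.0%, interval 21.1 to 78.9), at a median of 1.69 and up to 21.9. The difference of 31.8 points was reached by 3.26% of genes. In the index rows holding both classes, 3 of 7 had the higher Jun share in the Wt1-only cells, 3 had equal shares and 1 had the lower share there. Ier2 was detected in 12 of 33 Wt1-only cells and in 8 of 12 Sox9- or Pou3f3-only cells, a difference of -30.3 points that 3.78% of genes reached downwards. Its levels did not run the same way throughout, since the values at RPKM 20 or more were in 5 Wt1-only cells and in 0 of the Sox9- or Pou3f3-only cells.

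The detected shares of Fos and Egr1 differed little between these classes. Fos was detected in 8 of 33 Wt1-only cells and in 2 of 12 Sox9- or Pou3f3-only cells, a difference that 32.9% of genes reached. Egr1 was detected in 18 of 33 and in 7 of 12, with medians of RPKM 4.80 and 3.93, and 38.4% of genes reached this difference. The 2 distal-side cells with Fos, cells 6 and 50, had the lowest Jun of the 10 nephron cells with Fos, at RPKM 2.51 and 2.76.

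**Figure D4:**
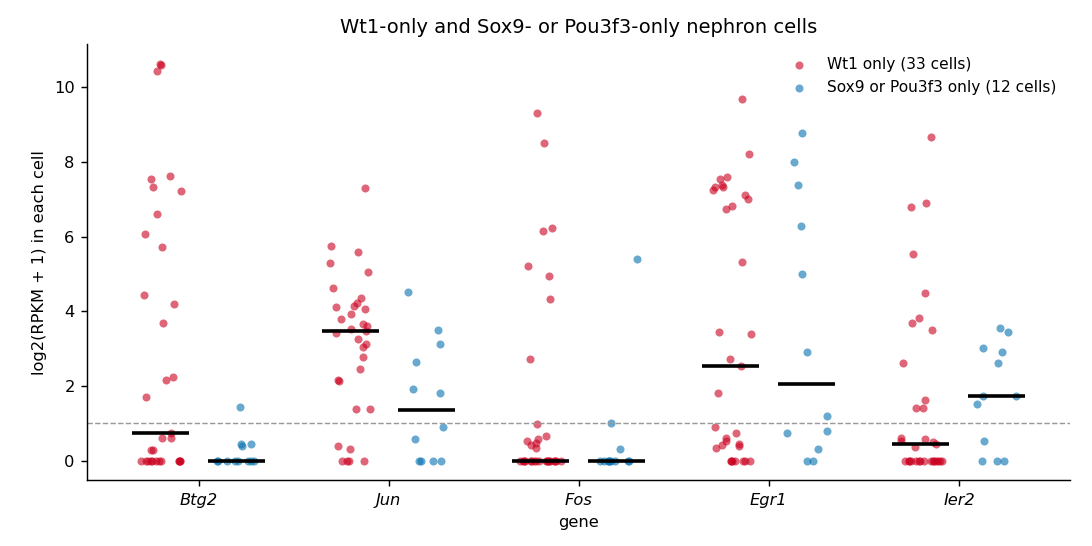
Level of 5 genes (x axis) in each nephron cell, as log2(RPKM + 1), in 33 Wt1-only cells (left of each pair) and 12 Sox9- or Pou3f3-only cells (right). Bars are medians and the dashed line is RPKM 1. Btg2 above the line lies almost wholly on the Wt1 side, while Egr1 spreads over both.

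Gene list scores, which include the genes that set these classes, ran the same way for Jun. Its rho with the proximal vesicle and podocyte score was 0.39 over 57 cells and 0.42 over nephron cells, where 4.71% and 4.8% of genes reached 0.3. With the distal score it was -0.38 and -0.54, where 1.73% and 2.71% of genes reached -0.3. Of the proximal genes, Tmem100 (0.32) and Wt1 (0.31) reached 0.3 with Jun. All 6 distal genes tested had a negative rho and 4 reached -0.3, namely the Notch ligand Dll1 (-0.46), Greb1 (-0.38), Sox9 (-0.35) and Pou3f3 (-0.32). Within index rows Jun kept rho 0.38 with the proximal and -0.33 with the distal score.

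Btg2 had rho 0.18 with the proximal score over 57 cells and 0.31 over nephron cells. With the distal score it had -0.21 and -0.28, smaller in size than 0.3 in both sets. With Wt1 itself it had rho 0.32, and with the podocyte factor Foxc2 also 0.32. Fos had rho -0.37 with the distal score and -0.01 with the proximal score, and its lowest value among the distal genes tested was with Sox9, at -0.44. Over nephron cells Fos had -0.33 with the distal and 0.22 with the proximal score. There 2 of the 6 proximal genes tested reached 0.3 with Fos, Foxc2 (0.42) among them. The rho of Egr1 was -0.06 with the proximal and -0.09 with the distal score, and that of Ier2 was -0.05 and 0.06.

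Cells 2 and 10, the only nephron cells with the podocyte slit diaphragm gene Nphs1 detected, had all 5 genes. In these Btg2 was at RPKM 1534 and 1370, Fos at 29.6 and 637, Egr1 at 820 and 151, Ier2 at 407 and 45.6, and Jun at 14.3 and 46.8. Their Btg2 levels were exceeded in cell 34 alone, and among the other nephron cells the next was 196, in cell 43. Cells 2, 10 and 34 were all in index row 2. What part the index row plays in these levels was not tested.

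A smaller deposited table by the authors sets a proximal against a distal class in 28 of the cells, and its 787 genes are 6.51% of those measured. Jun and Btg2 were the members listed there, both on the proximal side, which 436 genes (3.61%) shared. In the authors' deposited table the signed fold was 11.3 for Jun, in place 56 of 436, and 4.63 for Btg2, in place 302. The median fold on that side was 5.90. In these 28 cells Jun was detected in 21 and Btg2 in 7. These are cells of the same pool, so the table is no separate support, and the sources used here do not say which cell was in which class.

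None of the 5 genes reached 0.3 in size with either cell cycle score over 57 cells. The rank correlation with a score of 17 G2/M genes lay between -0.13 (Jun) and -0.03 (Egr1 and Ier2), where 12.3% of genes reached 0.3 and 0.738% reached -0.3, and over nephron cells that of Jun was -0.22. Of nephron cells with Ccnb1, the mitotic cyclin, at RPKM 20 or more (24 cells) and under it (26 cells), Fos was detected in 6 and 4, Jun in 17 and 17, Egr1 in 13 and 13, Ier2 in 12 and 10, and Btg2 in 9 and 10. The highest Btg2 value was 160 in the Ccnb1-high cells and 1585 in the Ccnb1-low cells, and 4 and 8 cells were at RPKM 20 or more. With the S phase score Jun had rho 0.25 (0.36 within index rows) and the others -0.05 to 0.13.

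The feedback genes of ERK signalling ran against Jun and Btg2. Immediate early genes are classical targets of this kinase, and the list held the Spry and Spred inhibitors, the phosphatase Dusp6 and the factors Etv4 and Etv5. Its score had rho -0.39 with Jun and -0.35 with Btg2, where 1.4% of genes reached -0.3. With Fos it was -0.21, with Egr1 -0.11 and with Ier2 0.03. Of the 8 single genes, 1 reached -0.3 with Jun, namely Dusp6 at rho -0.37 (1.32% of genes reached -0.3). With Btg2 2 did, Spry1 at -0.31 and Etv5 at -0.33 (0.847%). Spry2, the most widely detected of the list, had 0.01 with Jun and -0.20 with Btg2. In the authors' deposited table Etv5 (-38.8), Dusp6 (-19.3), Etv4 (-6.92) and Spry2 (-4.20) are all on the distal side, so this score and the distal one share a direction among the cells.

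**Figure D5:**
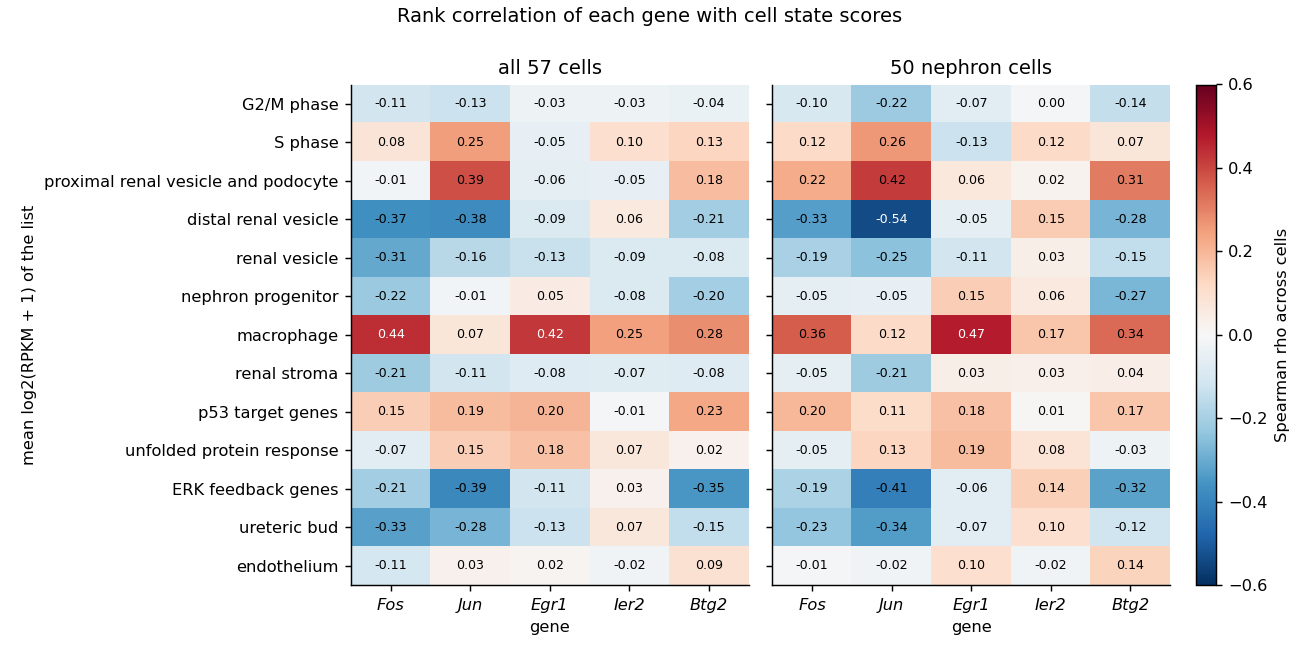
Spearman's rho between each of 5 genes (columns) and the mean log2(RPKM + 1) of each gene list without the genes themselves (rows), over 57 cells (left) and 50 nephron cells (right). With the distal score over 57 cells, Jun is at -0.38, Fos at -0.37 and Btg2 at -0.21. With the ERK feedback score, Jun is at -0.39, Btg2 at -0.35 and Fos at -0.21. Fos and Egr1 have the highest values in the macrophage row, and all values in the G2/M row over 57 cells lie between -0.13 and -0.03.

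For the remaining scores, over 57 cells, the renal vesicle score had rho -0.31 with Fos and -0.16 to -0.08 with the others, and the ureteric bud score, of 3 genes, had -0.33 with Fos and -0.28 with Jun. Both values of Fos were smaller in size than 0.3 over nephron cells, at -0.19 with the renal vesicle score and -0.23 with the ureteric bud score, and likewise without the macrophage-like cells, at -0.17 and -0.25. The nephron progenitor score lay between -0.22 (Fos) and 0.05 (Egr1), and the renal stroma score between -0.21 (Fos) and -0.07 (Ier2). The endothelium score, of 3 genes, lay between -0.11 and 0.09, the p53 target score between -0.01 and 0.23 (Btg2), and the unfolded protein response score between -0.07 and 0.18 (Egr1). With the mean of the 5 genes, list genes with large values were Wnt4 (-0.36) and Pax2 (-0.30) for the renal vesicle, Tyrobp (0.35) and Fcer1g (0.35) for macrophages, Foxc2 (0.24) for the proximal side, and Sox9 (-0.27) and Greb1 (-0.27) for the distal side. The others were Aldh1a2 (-0.33) and Tcf21 (0.09) for stroma, Dnajc3 (0.32) and Atf4 (0.19) for the unfolded protein response, Pcna (0.29) and Mcm4 (0.27) for S phase, Sall1 (-0.23) and Eya1 (0.18) for progenitors, Cenpf (-0.18) and Cdk1 (-0.17) for G2/M, Plk2 (0.15) and Gadd45a (0.11) for p53 targets, Spry1 (-0.24) and Etv5 (-0.20) for ERK feedback, and Hoxb7 (-0.14) for the ureteric bud.

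Besides the members, 16 immediate early transcription factors were measured, and 10 of these were detected in fewer than 10 cells, as were 32.3% of all 12041 genes with a symbol of their own. Klf10 was detected in 30 cells (mean RPKM 39.3 ± 89.8) and Klf6 in 21 (10.9 ± 31.4), with rho to Fos of 0.37 each over 57 cells. All 5 macrophage-like cells had Klf10 and 3 had Klf6. The highest values, 584 for Klf10 and 202 for Klf6, were in macrophage-like cells 1 and 58. Fosb, a paralogue of Fos, was detected in 8 cells, all 8 of which had Fos, 5 of them nephron cells and 3 macrophage-like, and its rho was 0.65 with Fos and 0.37 as the median over the 5 genes. Of the 8 cells with Junb 6 had Fos, and of the 4 with Atf3 2 did, both macrophage-like (cells 25 and 58, RPKM 431 and 221). Junb and Atf3 were singled out after their values were seen. Fos itself was in 14 of 57 cells, and no share over all genes was computed for its overlap with Fosb, Junb or Atf3.

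Of 29 other immediate early regulators measured, 14 were detected in at least 10 cells, against 67.7% of all genes. The most widely detected were Btg1, a paralogue of Btg2, in 55 cells (107 ± 124), the mRNA decay factors Zfp36l1 in 50 (54.4 ± 61.0) and Zfp36l2 in 36 (44.2 ± 74.5), and Dusp6 in 32. The rho of Btg1, Zfp36l1 and Zfp36l2 with the 5 genes lay between -0.08 and 0.23. Zfp36, singled out after its values were seen, was in 11 cells, all 5 macrophage-like cells among them, with rho 0.38 to Fos and 0.42 to Egr1. No gene of these lists detected in at least 10 cells had a median rho of 0.3 or more with the members, where 0.356% of all genes did.

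Among the chaperones, Hsp90ab1 (mean RPKM 1519 ± 663) and Hspa8 (1427 ± 540) were detected in all 57 cells, and Hsp90aa1 (317 ± 205) and Dnaja1 (122 ± 75.9) in 56 each. None of the 17 heat shock genes tested had a median rho of 0.3 or more with the members, and the medians ranged from -0.19 to 0.20. The co-chaperone Dnajb1 was in 18 cells and Hsph1 in 13, with rho to Fos of 0.11 and 0.05 (both singled out after their values were seen). Hmox1, the stress-inducible haem oxygenase, had a median rho of 0.33 with the members but was detected in 5 cells, all with Fos, 3 of them macrophage-like and 2 nephron cells. No share over all genes was computed for this overlap either.

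Hsp90ab1 ran against Fos, with rho -0.43 over 57 cells, where 2.76% of genes reached -0.3 with Fos, and -0.36 over nephron cells. It was at RPKM 141 to 529 in macrophage-like cells. Its median was 1300 (792 to 2044) in nephron cells with Fos and 1597 (766 to 3231) in nephron cells without Fos, so the ranges overlapped.

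The p53 target list includes Btg2 and also Trp53, the gene for p53 itself. Of its genes 8 were tested and none reached a median rho of 0.3. Trp53 was detected in 55 cells, Bax in 27 and Mdm2 in 22, and their rho with Btg2 was -0.03, -0.02 and -0.07. Of 12 genes of the unfolded protein response tested none reached it either. Hspa5 and Hsp90b1 were in all 57 cells, Pdia6 in 55 and Pdia4 in 51, and Pdia6 had rho 0.33 with Egr1. The ERK list had Spry2 in 39 cells, Spry1 in 36, Dusp6 in 32 and Etv5 in 24.

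The genes whose pattern was most like each member, by rho over 57 cells among genes detected in at least 10, differed from member to member. For Fos they were the cholesterol exporter Abcg1 (0.61), the scavenger receptor Cd36 (0.58), Ifi27l1 (0.58), Abca1 (0.56) and Lmo2 (0.55), and 2.37% of genes reached 0.3. Abcg1 was at RPKM 117 to 551 in macrophage-like cells, against a median of 0.0854 in nephron cells, and over nephron cells its rho with Fos was 0.56. Cd36 was at RPKM 18.8 to 488 in macrophage-like cells and at most 7.08 in nephron cells. Abca1 was at 4.57 to 162 in macrophage-like cells and at most 2.04 in nephron cells. The highest nephron values of Abcg1, Ifi27l1 and Lmo2 were 132, 211 and 7.61. For Egr1 they were Fos (0.52), Rufy1 (0.50), Fam48a (0.46), Wdr1 (0.45) and Serinc3 (0.44), and for Ier2 Cdan1 (0.53), Ift140 (0.52), Fos (0.49), Cish (0.49) and Dmxl2 (0.46), with 1.95% and 1.66% of genes at 0.3. Fos was thus among the 5 nearest genes of both.

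For Jun the nearest were the replication clamp Pcna (0.48), Poldip3 (0.46), Actn1 (0.46), Ociad1 (0.46) and Lrrc8a (0.45), none of them an immediate early gene of the lists, with 1.99% of genes at 0.3. For Btg2 they were Cnksr3 (0.56), Cln6 (0.48), the collagen receptor Ddr1 (0.48), Abcg1 (0.47) and Mettl2 (0.47), with 2.82%. For the mean of the 5 genes they were the tight junction gene Cldn5 (0.54), Luc7l (0.52), Cnksr3 (0.50), Abcg1 (0.48) and Zfp488 (0.48), with 3.4%. Cldn5 was at RPKM 0.710 or less in macrophage-like cells and reached 393 in nephron cells, where its rho with the mean was 0.66.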

How the data were processed

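RNA of 57 single cells of 1 group was analysed. The authors deposited RPKM values of 12087 genes, not logged, and a table of 787 genes with a signed fold between classes, used as their score, per the file headers. TopHat 1.4.1, DESeq and build mm9 are named, without roles, in the submitters' processing notes. Genes and lists were chosen with earlier results of these data known. Named are all members, the 4 most widely detected genes of each stress list (ties by mean RPKM) and those with median rho of 0.3 or more, the 5 genes nearest each member, and the 2 genes of each state list with the largest rho with the mean score. A gene that this rule takes is not reported here. Spearman's rho used genes detected (RPKM 1 or more) in at least 10 cells, leaving out 46 rows with a shared symbol, and was tested on simulated data. Scores are means of log2(RPKM + 1) without the members. Reads per cell were estimated from the RPKM of 1 read over 1015 genes with 1 transcript. Intervals are exact Clopper-Pearson, the limit for a count of 0 is 3 counts of the total, and both cover counting error. No p-value was computed, since the cells come from 1 pool. Alternatives were other pseudocounts, scalings, detection levels and sets of cells. Python 3.11.15, numpy 2.4.6, pandas 2.3.3 and scipy 1.17.1 were used.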

Additional observations from a re-analysis of the deposited data

How the results depend on the processing

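The number of cells with at least 2 of the 6 genes detected, 35, became 53 with any RPKM above 0 and 16 at RPKM 20, and lay between 29 and 32 at RPKM 3, at RPKM 5, without the macrophage-like cells and without all cells low in Pax8. The median rho of the 10 pairs, 0.27, rose past 0.3 with Pearson's r on log2(RPKM + 1) (0.39), log2(RPKM + 0.1) (0.34) or log2(RPKM + 10) (0.43), and with values under RPKM 5 set to 0 (0.35). Leaving out each cell in turn gave 0.23 to 0.30. The cause of these shifts was not tested. Of 110 values of pairs under alternatives, 86 kept their side of 0.3 and 24 passed it, and none fell below it. Pairs without Fos were among the 24, as Ier2 and Btg2 at 0.39 with Pearson's r on log2(RPKM + 1). In 9 of the 10 pairs every value was positive, the exception being Fos with Btg2 within index rows. Of 984 values for cell states, 919 kept their side, 48 passed it and 17 fell short. Of the last, 3 were Egr1 with the macrophage score under Pearson's r (0.20 to 0.23) and 9 were Fos with the renal vesicle or ureteric bud score (-0.30 to -0.17). Jun with the proximal score fell to 0.29 with a pseudocount of 10 and to 0.28 with low values set to 0, and Btg2 with ERK feedback to -0.28 both with upper quartile scaling and within index rows. Genes with rho 0.3 or more with Fos numbered 193, against 340 with a pseudocount of 10 and 318 among genes detected in at least 5 cells. Genes with rho 0.3 or more with Jun numbered 162, against 281 within index rows, and genes with rho 0.3 or more with Ier2 numbered 135, against 207 and 284 with Pearson's r at pseudocounts of 1 and 10 and 205 without cells low in Pax8. Depth limits low values, since 1 read at the median depth equals RPKM 0.324 for Fos and 0.448 for Ier2. No paired analysis was possible because the cells form a single group. Protein, timing of induction and cells before digestion were not measured.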
